A study of Mus musculus with 8 samples.

Results

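Interferon regulatory factors (IRFs) are DNA-binding proteins that switch on, or in some cases hold down, the genes of the interferon response. The 7 members described here, Irf1, Irf2, Irf3, Irf4, Irf5, Irf7 and Irf8, were taken by symbol from the 55367 gene rows of a read count table of mouse Neuro2a cells, a neuroblastoma line. All 7 were found, and 5 of them passed the filter on low counts, as did 15117 genes in all. The 2 groups differ in their plasmids. CRISPR activation (CRISPRa) cultures were transfected with 750 ng of a single guide RNA (sgRNA) plasmid plus 750 ng of a plasmid for sadCas9-VP64, a Cas9 from Staphylococcus aureus that no longer cuts DNA and carries the VP64 activator. Control cultures, called no sgRNA, received sadCas9-VP64 without a guide, in an amount that the labels do not give. Both groups thus share the cell line and the kind of activator plasmid. Whether the dose of that plasmid and the total DNA were equal is not given in the labels. The presence of the guide plasmid, any difference in DNA amount and the action of the guide at its target cannot be told apart. No control with another guide was used here. The share of cells that took up plasmid is not given in the sources used here.

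Library totals ran from 29739422 to 34248514 counts over the 3 CRISPRa and 3 no-sgRNA libraries analysed. CRISPRa replicate 5 and no-sgRNA replicate 4 each stood apart from the other libraries of their group, with a chi-square per degree of freedom of 14.1 to 17.1 against 4.73 and 5.98 within the pairs numbered 2 and 3. Scn2a, the gene that the series is directed at, averaged 7.81 CPM (counts per 1000000; SD 0.714) in the CRISPRa libraries and 5.61 CPM (SD 1.31) in the controls, a fitted log2 difference of 0.48 (edgeR adjusted p 0.0899). The authors' deposited table, whose name gives 8 samples against the 6 libraries used here, lists Scn2a at a log2 fold change of 0.62 with an adjusted p of 0.00138. From here on, a value after ± is the SD over the 3 libraries of a group. Of 9 neuroblastoma markers, 8 were expressed well enough to be tested. Their summed level was 1335 to 1563 CPM with CRISPRa and 1609 to 1758 CPM without the guide, with Phox2a and Hand2 lower and Tubb3 higher. The labels do not say that replicates came from separate cultures, so p-values measure the spread between these libraries, which may be technical.

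Every IRF binds DNA through an amino-terminal domain that reads the GAAA repeats of the interferon-stimulated response element (ISRE). IRF3, IRF5 and IRF7 lie dormant until pathogen sensors lead to their phosphorylation, after which they enter the nucleus and drive interferon genes. IRF1 and IRF7 are themselves products of interferon signalling, IRF2 competes with IRF1 for the same sites, and IRF4 and IRF8 act mainly in blood cells with partners such as PU.1.

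The start regions of the members are shown because 3 of the 5 measured genes rose and 2 did not change detectably, and the letters near the start sites can be set beside that. RefSeq windows (GRCm38.p6) running from 250 bases before to 50 after the start site matched all 7 members. Motifs of 3 kinds were searched on both strands: the ISRE as GAAA, any 2 bases and GAAA again, the interferon gamma-activated site (GAS) as TTCNNNGAA, and the NF-kB site. Matches are in capitals below. Irf1 (chr11:53769764-53770063, plus strand) rose with CRISPRa. It holds a GAS match, TTCCCCGAA, that begins 90 bases before the start site, and an NF-kB match, GGGGAATCCC, that begins 13 bases before it.
Irf1: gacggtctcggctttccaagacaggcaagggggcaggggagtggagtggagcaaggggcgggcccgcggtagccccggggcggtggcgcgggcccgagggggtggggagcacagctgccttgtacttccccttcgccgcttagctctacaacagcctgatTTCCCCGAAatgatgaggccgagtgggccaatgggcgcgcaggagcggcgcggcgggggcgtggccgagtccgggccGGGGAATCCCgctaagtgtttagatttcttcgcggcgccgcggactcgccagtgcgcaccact
Irf7 (chr7:141266375-141266674, minus strand) rose far more than any other member, and its window holds none of the 3 motifs.
Irf7: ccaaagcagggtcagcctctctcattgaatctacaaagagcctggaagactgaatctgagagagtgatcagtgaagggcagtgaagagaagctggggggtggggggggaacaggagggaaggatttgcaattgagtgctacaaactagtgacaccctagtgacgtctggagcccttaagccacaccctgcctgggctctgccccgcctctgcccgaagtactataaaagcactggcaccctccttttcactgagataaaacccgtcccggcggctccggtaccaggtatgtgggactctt
Irf2 (chr8:46739495-46739794, plus strand) was not called, and its window holds 1 match to each: GAAAATGAAA (ISRE), TTCCGAGAA (GAS) and GGGGATTTCC (NF-kB), in that order.
Irf2: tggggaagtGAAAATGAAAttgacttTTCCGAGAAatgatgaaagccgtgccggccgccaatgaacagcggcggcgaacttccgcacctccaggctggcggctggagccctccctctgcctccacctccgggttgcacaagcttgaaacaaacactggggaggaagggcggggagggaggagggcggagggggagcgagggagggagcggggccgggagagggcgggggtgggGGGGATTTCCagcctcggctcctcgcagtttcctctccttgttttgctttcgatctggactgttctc
The windows of Irf3, Irf4 and Irf5 hold no match, and the main window of Irf8 holds 2 GAS matches. The second windows of Irf1 and Irf8 hold none. Over all 32851 promoter windows of this length, 3.44% hold an ISRE match, 8.30% a GAS match and 8.46% an NF-kB match. Among the 5 tested members, matches were found for Irf1 and Irf2 and none for Irf3, Irf5 and Irf7. Whether matches go with the response was not tested, with few genes, a fixed pattern per motif and windows of 300 bases. For Irf7, the GENCODE start at 141266481 lies inside the window, upstream of the RefSeq start site used. A match is a run of letters and does not show that a factor binds there.

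Of the 5 members that could be tested, 3 rose with CRISPRa (Irf1, Irf5 and Irf7), and neither Irf2 nor Irf3 passed the threshold. The background was high: 18.7% of all tested genes passed an edgeR quasi-likelihood test at a Benjamini-Hochberg adjusted p under 0.05, 9.47% in the higher and 9.25% in the lower direction. The groups of libraries did not overlap for 36.4% of tested genes in either direction, 17.7% in the higher one, and for 3 of the 5 tested members, all higher. Levels below are CPM after scaling by the trimmed mean of M-values (TMM). In these bulk libraries, more cells that express a gene and more RNA per cell cannot be told apart.

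**Figure D1:**
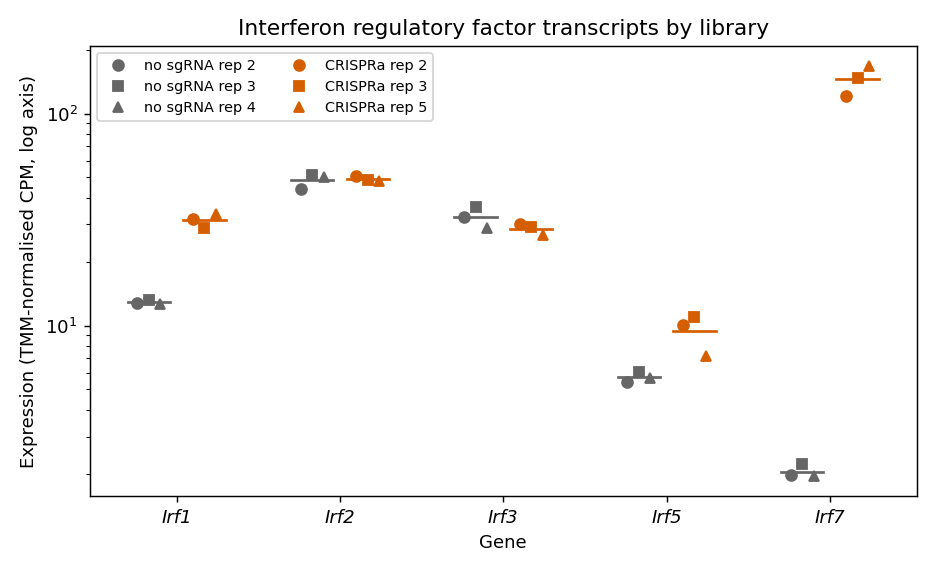
Expression of the 5 tested interferon regulatory factors in each library, as TMM-normalised CPM on a log axis; grey points are no-sgRNA libraries, orange points are CRISPRa libraries, and horizontal lines are group means. Irf7 lies at 1.96 to 2.22 CPM in grey and 122 to 167 CPM in orange, Irf1 and Irf5 are separated by less, and the points of Irf2 and Irf3 overlap.

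Irf7, called the master regulator of type I interferon genes, had the lowest level per kilobase of the 5 tested members without the guide and the highest with it. Its counts were 60, 66 and 62 in the controls (no-sgRNA replicates 2, 3 and 4, the order used throughout), or 1.97, 2.22 and 1.96 CPM. They were 4186, 4819 and 5412 in CRISPRa replicates 2, 3 and 5, or 121.5, 147.6 and 166.8 CPM. The control libraries lay close together, while CRISPRa replicate 5 was highest and replicate 2 lowest, and the groups were far apart. By edgeR, Irf7 rose by 6.15 on the log2 scale (SE 0.14; adjusted p 8.58e-14), or 70.8-fold with a 95% interval of 57.8 to 86.8-fold. Of all tested genes, 28 had a larger fitted log2 fold change. An exact two-sided permutation of the mean CPM gave p = 0.1, the smallest that 3 libraries against 3 allow, as it did for Irf1 and Irf5. Irf7 (chromosome 7, 141262706 to 141266481, minus strand, GRCm38) shares 1.19% of its exonic bases with Phrf1 on the opposite strand. Phrf1 was at 3466 to 3477 counts without the guide and 3421 to 3487 with it.

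Irf1, the founding member of the family and an activator of antigen presentation genes, had 390, 394 and 400 counts without the guide, or 12.8, 13.3 and 12.6 CPM. It had 1096, 946 and 1088 counts with CRISPRa, or 31.8, 29.0 and 33.5 CPM. All CRISPRa libraries lay well above all controls. By edgeR, Irf1 rose by 1.29 on the log2 scale (SE 0.10; adjusted p 3.98e-07), or 2.44-fold with a 95% interval of 2.10 to 2.83-fold. Irf1 (chromosome 11, 53770014 to 53778374, plus strand) overlaps the opposite-strand gene Gm17334 over 3.40% of its exonic bases. Gm17334 had 46, 33 and 45 counts with CRISPRa and 19, 23 and 13 without, a log2 difference of 1.04 (SE 0.43; edgeR adjusted p 0.110). Strand use in the counting is not given in the sources used here, so reads of the pair in the overlap cannot be told apart.

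Irf5, which acts with MyD88 downstream of Toll-like receptors in immune cells, had the smallest of the 3 fitted rises. It had 166, 179 and 180 counts without the guide, or 5.44, 6.03 and 5.69 CPM. It had 348, 357 and 234 counts with CRISPRa, or 10.1, 10.9 and 7.21 CPM. Replicate 5 lay closer to the controls than the other CRISPRa libraries did, though still above each of them. By edgeR, Irf5 rose by 0.72 on the log2 scale (SE 0.17; adjusted p 0.00933), or 1.65-fold with a 95% interval of 1.28 to 2.13-fold. Without CRISPRa replicate 3 the adjusted p was 0.05005, just above the threshold of 0.05, at a log2 fold change of 0.61. Over all alternatives the adjusted p ran from 3.45e-05 to 0.05005. Irf5 (chromosome 6, 29526625 to 29541871, plus strand) has 14.2% of its exonic bases opposite exons of Tnpo3, a nuclear import gene with many more counts. Tnpo3 had 3586 to 3991 counts with CRISPRa and 3821 to 3883 without, and its log2 difference was -0.16 (SE 0.06; edgeR adjusted p 0.0998), opposite in sign to that of Irf5.

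Irf3, the factor that sensor-activated TBK1 phosphorylates first, had 993, 1073 and 915 counts without the guide, or 32.6, 36.1 and 28.9 CPM. It had 1041, 949 and 865 counts with CRISPRa, or 30.2, 29.1 and 26.7 CPM. The groups overlapped. Irf3 had a fitted log2 difference of -0.18 (SE 0.10; edgeR adjusted p 0.230), and its 95% interval, from 0.761 to 1.02-fold, lies below the estimates for Irf1 and Irf5. Irf3 (chromosome 7, 44997648 to 45002848, plus strand) overlaps Bcl2l12 over 2.56% of its exonic bases.

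Irf2, which binds the same elements as IRF1 and mostly represses through them, had 1348, 1527 and 1596 counts without the guide, or 44.2, 51.4 and 50.4 CPM. It had 1755, 1592 and 1556 counts with CRISPRa, or 50.9, 48.8 and 48.0 CPM. The CRISPRa values fell within the range of the controls. Irf2 had a fitted log2 difference of 0.0163 (SE 0.08; edgeR adjusted p 0.919), with a 95% interval of 0.897 to 1.14-fold. Irf2 lies on chromosome 8 (46739732 to 46847458, plus strand) and overlaps no other annotated exon.

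Irf4 and Irf8, the members of lymphoid and myeloid cells, were not detectable above the floor. Irf4 (chromosome 13, 30749226 to 30766976) had 0 counts in all 6 libraries, where 3 counts would correspond to 0.0871 to 0.101 CPM depending on the library. Irf8 (chromosome 8, 120736358 to 120756694) had 2 counts in CRISPRa replicate 2, 2 in no-sgRNA replicate 4 and 0 elsewhere. These floors cover counting error only and take each count as 1 fragment of RNA. Of the values from 1 to 10 counts in the table, 74.3% were even, and whether the mates of a read pair were counted apart is not given in the sources used here. Read in transcript direction, none of the 7 members shares a run of 50 bases with transcripts of another gene, family members included, in GENCODE M21. That search did not cover the opposite strand, where Irf1, Irf3, Irf5 and Irf7 overlap other genes, nor shorter runs.

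**Figure D2:**
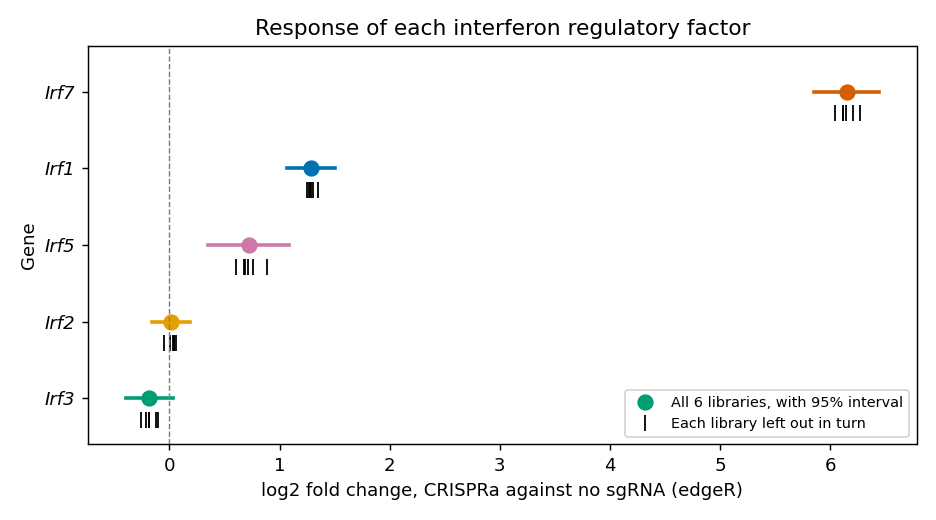
The log2 fold change of each tested member, CRISPRa against no sgRNA, from edgeR; circles and bars give the estimate and 95% interval with all 6 libraries, and black ticks give the 6 estimates with 1 library left out. Irf7 stands at 6.15, Irf1 at 1.29 and Irf5 at 0.72, while the intervals of Irf2 and Irf3 include 0.

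In the authors' deposited table, whose name gives 8 samples and which lists 6 members, the log2 fold change was 6.20 (SE 0.12) for Irf7, 1.18 (SE 0.09) for Irf1 and 0.85 (SE 0.13) for Irf5. The authors' deposited table gives adjusted p-values of 7.92e-39 for Irf1 and 2.91e-09 for Irf5, and lists that of Irf7 as 0. In the authors' deposited table Irf2 stood at 0.10 (adjusted p 0.344) and Irf3 at -0.12 (adjusted p 0.278), and Irf8 had no adjusted p. Its samples and those analysed here are from the same series, so it is not a separate experiment.

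Dividing CPM by exon length gives an approximate ranking of the members. The length takes all annotated exonic bases of a gene, not those of a single transcript. For Irf7 these 3776 bases cover the whole gene span, so its values per kilobase depend on that length. In CPM without that division, Irf7 was likewise the lowest of the 5 tested members without the guide (2.05) and the highest with CRISPRa (145.3). Without the guide the order by CPM per kilobase was Irf3 (9.45 ± 1.05), Irf2 (6.58 ± 0.530), Irf1 (3.24 ± 0.0829), Irf5 (1.97 ± 0.101) and Irf7 (0.543 ± 0.0397). The ranges of neighbours in that order did not overlap. With CRISPRa the order was Irf7 (38.5 ± 6.03), Irf3 (8.32 ± 0.526), Irf1 (7.91 ± 0.580), Irf2 (6.66 ± 0.208) and Irf5 (3.24 ± 0.672). Here the ranges of Irf3 and Irf1 overlapped, from 7.75 to 8.78 and from 7.29 to 8.44 CPM per kilobase. Of all tested genes, 84.0% had a higher mean level per kilobase than Irf7 without the guide and 8.02% with it. The corresponding shares for Irf1 were 59.7% and 40.0%.

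The mixture of IRF transcripts was described by summing levels per kilobase. Summed over the 7 members, the level per kilobase was 21.8 ± 1.44 without the guide and 64.6 ± 5.03 with CRISPRa, a ratio of 2.97. With Irf7 left out, the sums were 21.2 ± 1.40 and 26.1 ± 0.999, a ratio of 1.23. The share of Irf7 in the sum was 2.48%, 2.51% and 2.48% in the control libraries and 54.2%, 60.0% and 63.7% in CRISPRa replicates 2, 3 and 5. Irf3 made up 43.3% ± 2.68 without the guide and 12.98% ± 1.81 with it, and Irf2 30.2% ± 2.19 and 10.4% ± 1.15. The levels of Irf2 and Irf3 themselves overlapped between groups, so their lower shares come with the larger sum. Shares add up to 100%, so the share of Irf7 sets how much is left to the others, and the shares of Irf1 and Irf5 were lower with CRISPRa although both genes rose. For each of the 5 tested members the shares did not overlap between groups (exact permutation p = 0.1), with Irf7 higher and the others lower with CRISPRa. Shares of plain counts, not divided by length, differed in the same directions. The difference (CRISPRa minus no sgRNA) went from 56.8 to 52.8 percentage points for Irf7. It went from -2.63 to -0.741 percentage points for Irf1 and from -3.97 to -2.01 for Irf5.

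**Figure D3:**
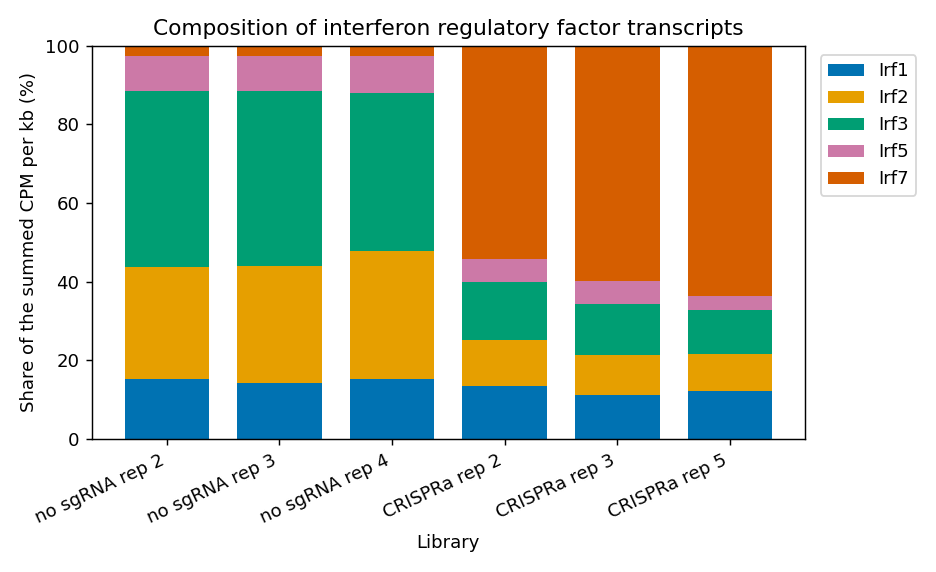
Share of each interferon regulatory factor in the summed CPM per kilobase of the members, as stacked bars for the 3 no-sgRNA and 3 CRISPRa libraries. Irf3 and Irf2 fill most of the control bars, and Irf7 fills 54.2% to 63.7% of the CRISPRa bars; Irf8, at most 0.0429%, and Irf4, at 0, are too small to see.

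Ratios within a library were compared for all 10 pairs of tested members, since both genes of a ratio come from the same RNA. The log2 ratio of Irf1 to its competitor Irf2, per kilobase, was -0.89, -1.06 and -1.10 in the controls and 0.22, 0.14 and 0.38 in CRISPRa replicates 2, 3 and 5. Per kilobase, Irf2 exceeded Irf1 in all control libraries and lay below it in all CRISPRa libraries. This order depends on the exon lengths, 7396 bases for Irf2 and 3976 for Irf1: in CPM without that division Irf2 exceeded Irf1 in all 6 libraries. The log2 ratio of Irf3 to Irf7 was 4.18, 4.16 and 4.02 in the controls and -1.87, -2.21 and -2.51 with CRISPRa. The 10 ratios come from 5 levels, and 9 of them contain Irf1, Irf5 or Irf7, whose own levels did not overlap between groups, so they are not separate results. Each of these 9 had an exact permutation p of 0.1 and a Benjamini-Hochberg adjusted value of 0.111. The remaining ratio was that of Irf2 to Irf3, whose log2 ratio was -0.52 ± 0.19 without the guide and -0.32 ± 0.06 with CRISPRa (exact permutation p = 0.3).

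Genes upstream of the IRFs were compared next, from a list of 26 sensors, adaptors and kinases that lead to phosphorylation of IRF3, IRF5 or IRF7. Of the 22 that were tested, 12 rose and Mavs fell, and their median log2 fold change was 0.31, against -0.0071 for all tested genes. The median is the same with Zbp1, which had no control counts, set to its lower bound. The largest rises were those of nucleic acid sensors. Ifih1, which encodes the double-stranded RNA sensor MDA5, rose from 1.19 ± 0.767 to 40.6 ± 7.74 CPM (log2 5.10 with SE 0.27; edgeR adjusted p 2.13e-09). Ddx58 (RIG-I) and Dhx58 (LGP2) rose by log2 fold changes of 3.70 and 3.30. Zbp1, a sensor of Z-form nucleic acids, had 101, 55 and 153 counts with CRISPRa and 0 in all control libraries. It came past the filter only through its CRISPRa counts. The other members of the list that rose were Tlr3, Tlr4, Irak1, Ikbkb, Tbkbp1 and Azi2, and Tbk1 and Myd88, described below. Cgas and Sting1, which sense cytosolic DNA and pass that signal on, did not pass, at log2 fold changes of 0.21 (adjusted p 0.374) and 0.18 (adjusted p 0.242). Fold changes were smaller for the adaptor and kinase closest to the IRFs. Mavs, the mitochondrial adaptor of RIG-I and MDA5, fell from 98.4 ± 3.91 to 78.1 ± 8.95 CPM (log2 -0.33 with SE 0.08; edgeR adjusted p 0.0113). Tbk1, the main kinase of IRF3 and IRF7, rose from 73.5 ± 5.37 to 88.6 ± 2.80 CPM (log2 0.27 with SE 0.07; edgeR adjusted p 0.0186). The call for Tbk1 was lost without CRISPRa replicate 3 and without no-sgRNA replicate 2 or 3, with adjusted p-values from 0.000335 to 0.0963 over its alternatives. Its relative Ikbke was too low to test, at 9, 22 and 30 counts against 9, 4 and 4. Among the listed Toll-like receptor genes, those of Tlr7, Tlr8 and Tlr9 were near 0: Tlr7 had 2 counts in 1 library, Tlr8 none, and Tlr9 at most 4. Tlr3 and Tlr4 were expressed, at means of 9.08 and 22.7 CPM without the guide and 45.7 and 38.1 CPM with CRISPRa. Myd88 rose by 0.72 on the log2 scale (edgeR adjusted p 0.0152), a call lost without CRISPRa replicate 5 or no-sgRNA replicate 4 (adjusted p 0.00201 to 0.0899 over its alternatives).

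The interferon genes, among them those that IRF3 and IRF7 are known to drive, were at or near 0 in the RNA. Of 21 listed interferon genes, 20, including Ifnb1 and all listed Ifna genes, had 0 counts in all 6 libraries. Ifnz had 8 counts in CRISPRa replicate 3, 2 in no-sgRNA replicate 2 and 0 elsewhere. At this depth a level below about 0.0871 to 0.101 CPM in a library, which corresponds to 3 counts, could be missed.

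The interferon receptors and their signalling chain, which induce Irf1 and Irf7 after interferon binds, formed a list of 10 tested genes. Of these, 4 were changed, all of them higher, among them Stat2, Irf9 and Jak2. The median log2 fold change of the list was 0.13. Irf9, the DNA-binding subunit of the ISGF3 complex, had 705, 713 and 724 counts in the controls and 4284, 4280 and 4364 with CRISPRa (log2 2.48 with SE 0.07; edgeR adjusted p 1.49e-12). Stat2, another subunit of that complex, rose from 31.0 ± 1.90 to 124 ± 15.4 CPM, and Jak2, a receptor-bound kinase, from 50.8 ± 3.31 to 71.3 ± 8.89 CPM. The receptor genes Ifnar1, Ifnar2, Ifngr1 and Ifngr2 did not pass, with log2 fold changes from -0.15 to 0.14.

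Regulators of the IRFs and of the signals that reach them moved in both directions. Of 16 listed genes, all tested, 6 rose and 2 fell, with a median log2 fold change of 0.12. Usp18, a feedback inhibitor at the interferon receptor, rose from 0.824 ± 0.361 to 118 ± 16.3 CPM (log2 7.17 with SE 0.19; edgeR adjusted p 3.22e-13). Trim21, a ubiquitin ligase with several IRFs among its substrates, rose by a log2 fold change of 1.80, and Socs1, an inhibitor of JAK kinases, by 1.25. Rnf31 and Trim26 rose by 0.51 and 0.54. Irf2bp1, Irf2bp2 and the related gene Irf2bpl differed among themselves. Irf2bp1 fell from 52.0 ± 5.74 to 40.4 ± 4.94 CPM (log2 -0.36 with SE 0.10; edgeR adjusted p 0.0219). That call was lost without CRISPRa replicate 2 or 5 and without no-sgRNA replicate 3 or 4, with adjusted p-values from 0.00175 to 0.137 over its alternatives. Irf2bpl rose by 0.29 (SE 0.06, edgeR adjusted p 0.00428), and Irf2bp2 stood at -0.0421 (adjusted p 0.686). Trim28, a general co-repressor, fell by 0.31 on the log2 scale.

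Textbook targets were taken as 2 lists, which hold genes that other IRFs and ISGF3 also drive. All 12 genes of the IRF3 and IRF7 list were tested and all rose, with a median log2 fold change of 4.84 and a range from 1.53 for Isg20 to 9.27 for Ifi44. Several of them are standard interferon response genes that earlier results of these data had already shown to be higher, so the count is no independent evidence. Ifi44 and Ifit3 also came past the filter through their CRISPRa counts. Ifi44 had 2930, 3242 and 7341 counts with CRISPRa and 10, 4 and 6 without (the order of libraries as above), so replicate 5 held more than the other CRISPRa libraries together. Rsad2, the antiviral enzyme viperin, rose from 2.90 ± 0.699 to 221 ± 27.6 CPM, and Ifit1, which binds foreign RNA caps, from 5.31 ± 0.780 to 216 ± 6.04 CPM. The chemokine genes Ccl5 and Cxcl10 rose by log2 fold changes of 5.27 and 4.53. Of the 21 IRF1 targets, 16 were tested and 13 rose, with a median of 1.35. Gbp2, Gbp3 and Nlrc5 came past the filter through their CRISPRa counts. They could be tested only where higher, and they enter this count and median. Parp14 rose from 2.91 ± 0.144 to 137 ± 7.75 CPM (log2 5.55 with SE 0.10; edgeR adjusted p 6.19e-15). Gbp3 had 1801, 1694 and 2399 counts against 8, 0 and 7, and Gbp2 had 97, 71 and 71 counts against 0 in every control. Nlrc5, the transactivator of MHC class I genes, rose by a log2 fold change of 4.69. The immunoproteasome subunits Psmb8, Psmb9 and Psmb10 and the peptide loading genes Tap1 and Tapbp were in the same list and rose by 0.95 to 1.67. Il15, Il15ra and Vcam1 did not pass, the last at a log2 fold change of -0.48, and Ciita, Nos2, Ptgs2, Il12b and Casp1 had at most 10 counts in any library.

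**Figure D4:**
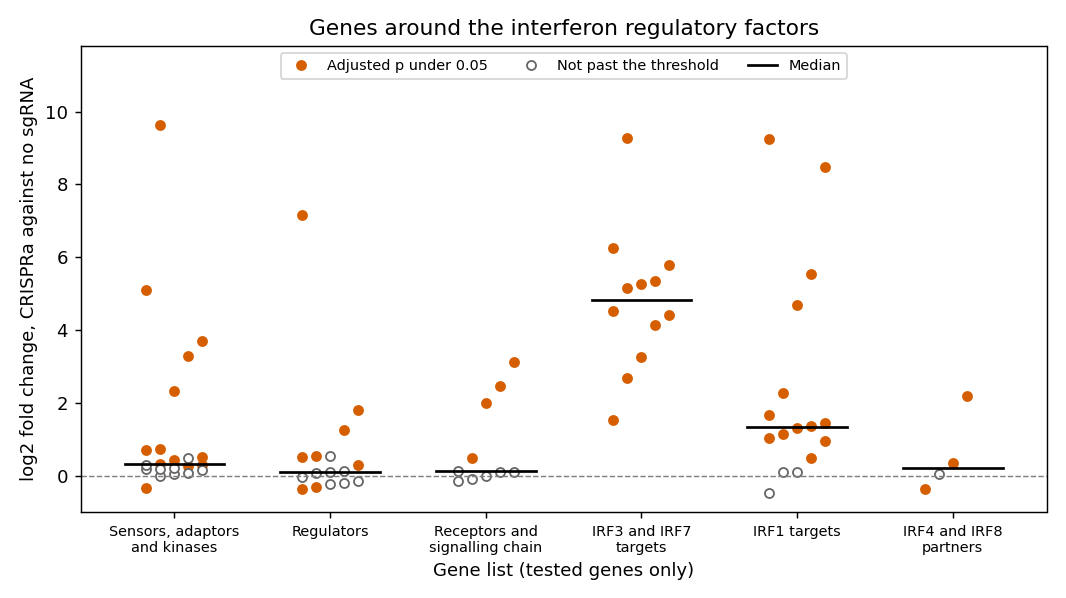
The log2 fold change of every tested gene in 6 lists around the interferon regulatory factors; filled orange points passed an edgeR adjusted p under 0.05, open points did not, and black lines are medians. The fitted values of Zbp1 and Gbp2, with 0 control counts, depend on the prior count. The medians are 0.31 for sensors, adaptors and kinases, 0.12 for regulators, 0.13 for receptors and their signalling chain, 4.84 for IRF3 and IRF7 targets, 1.35 for IRF1 targets and 0.22 for IRF4 and IRF8 partners.

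The partners that IRF4 and IRF8 need in blood cells were mostly near 0. Of 10 listed partners, 4 were tested. Stat3 rose and Tcf3 fell, and Etv6 did not pass. Batf3 was low, at 18, 16 and 17 counts against 6, 2 and 2, and came past the filter through its CRISPRa counts. Its edgeR adjusted p was 0.0296, but it passed in only 6 of 15 alternatives. It was lost without CRISPRa replicate 2, 3 or 5 and without no-sgRNA replicate 3 or 4, and without a filter, and its adjusted p ran from 0.0292 to 0.152 where it was tested. Spi1, which encodes PU.1, had 8 counts in CRISPRa replicate 2, 5 in no-sgRNA replicate 2 and 0 elsewhere. Markers of blood cells were mostly near 0 too. Of 9 myeloid markers, Itgam, Adgre1, Lyz2 and Cx3cr1 had 0 counts in all libraries, and the list summed to 1.34 to 1.62 CPM with CRISPRa and 0.758 to 1.65 CPM without. Cd68 had 18 to 48 counts per library, and none of the other myeloid markers exceeded 14. Of 7 lymphocyte markers, 2 had 0 counts in every library, and the sums were 0.185 to 0.429 CPM and 0.0632 to 0.524 CPM. Of 6 fibroblast markers, Col3a1 was at 0 and Col1a2 and Pdgfra fell, with sums of 14.6 to 21.4 CPM against 28.6 to 32.4 CPM. The part of this difference, and of the lower Phox2a and Hand2, in the IRF results was not tested.

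The genes whose pattern over the 6 libraries was closest to each changed member were found by Euclidean distance between centred log2 CPM values, among 12857 other genes with a mean of at least 1 CPM. For Irf7 they were Oasl2 (distance 0.38), Apol9b (0.65) and Tgtp2 (0.65). Tgtp2 stood at 0 CPM in the controls and 3.71 ± 1.63 CPM with CRISPRa, so its distance depends on the prior count. Its fitted log2 fold change was 9.89 (SE 0.85). For Irf1 they were Gem (0.13), H2-D1 (0.16) and Trim25 (0.17). For Irf5 they were Dock2 (0.22), Gm47135 (0.24) and Cage1 (0.25). Gm47135 and Cage1 did not pass themselves (edgeR adjusted p 0.0868 and 0.0980). Such a distance mostly reflects the size of the difference between groups, and the libraries are the same for both genes.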

How the data were processed

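Poly(A)-enriched RNA was sequenced, per the labels' protocols. STAR 2.5.1b, featureCounts, DESeq2 and mm10 are named in the submitters' processing notes. The authors deposited read counts by gene, whole numbers, used here for 6 of the 8 labelled samples; those of CRISPRa replicate 1 and of no-sgRNA replicate 5 were not used here. A further deposited table by the authors holds a mean signal, log2 fold changes, a test score and p-values over 8 samples, whose direction is not stated and was read from its shared genes. All 7 gene spans equal GENCODE M21 (GRCm38).

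Groups came from sample titles. Genes were filtered with filterByExpr, scaled by TMM and tested with edgeR 4.0.16 (glmQLFit, glmQLFTest; R 4.3.3), with Benjamini-Hochberg adjustment over 15117 genes. SE is the log2 fold change divided by the square root of F. CPM uses the total of tested genes times the TMM factor. On simulated data with 14829 genes tested, 81.6% of 98 2-fold and 94.8% of 96 4-fold changes were recovered, with 11 false calls. Far fewer genes were changed there than were called in the data, and no library was made to stand apart, so recovery in the data may differ. Alternatives were RLE, upper-quartile and library-size scaling, other filters, DESeq2 1.42.0, limma-voom (limma 3.58.1), other thresholds, each library left out, and a replicate block.

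The members and lists were chosen with earlier results of these data known. Named genes are the members, Scn2a, the 4 largest changes of each list and the largest in the other direction, defining genes of a step, other changed and untested list genes, and the 3 nearest patterns of each changed member. Overlapping genes and other list genes with values were chosen after their values were seen. Some genes of the lists are not reported here by name.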

Additional observations from a re-analysis of the deposited data

How the results depend on the processing

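The rises of Irf1 and Irf7 kept their direction and passed in all 15 alternatives run for each, with log2 fold changes from 1.22 to 1.35 and from 6.002 to 6.27. Irf5 passed in 14 of 15. Leaving out 1 library gave from 0.61 (without CRISPRa replicate 3, adjusted p 0.05005, within a range over its alternatives of 3.45e-05 to 0.05005) to 0.89. Irf3 stayed negative and did not pass in any of its 15, from -0.26 to -0.10. Irf2 did not pass in any, and its sign turned in 1, without no-sgRNA replicate 2, where it was -0.0505 (up to 0.056 with another library left out); the cause was not tested. The number of changed members was from 2 to 3 with 1 library left out and 3 in the other alternatives. The number of changed genes overall was 1417 with the stricter threshold of 0.01, which calls fewer by construction, and within 1.5 times of 2829 in the other alternatives. List counts stayed within 1.5 times of their main values; among their changed genes, Tbk1, Myd88, Irf2bp1 and Batf3 lost their call in some alternatives, Myd88, Irf2bp1 and Batf3 also in the fit with a replicate block. Where leaving out a library left 2 against 3, the spread was pooled over both groups.

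The replicate numbers 2 and 3 occur in both groups. Deviations of equally numbered libraries had correlations of -0.00459 and -0.0256 across genes, which are not independent, so the numbers were not taken as a pairing. With a replicate block on these 4 libraries, log2 fold changes were 1.22 (Irf1), 0.0653 (Irf2), -0.21 (Irf3), 0.88 (Irf5) and 6.002 (Irf7), with the same 3 members called, and 3170 genes were changed in all. Depth limits Irf4 and Irf8, whose counts allow no comparison.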

Other observations

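Low counts in the table were even more often than odd. Of 32222 gene and library values between 1 and 10 counts, 74.3% were even, and of 28220 values between 101 and 1000, 55.8% were even. For Irf1 the 6 counts were all even, and the 4 counts of Irf8 came as 2 in each of 2 libraries. Irf2, Irf3, Irf5 and Irf7 each had an odd count in some library. How read pairs were counted is not given in the sources used here.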
